A study of Rattus norvegicus with 14 samples.

Results

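The genes described here encode metabotropic glutamate receptors. They were Grm5 of group I, Grm2 and Grm3 of group II, and Grm4, Grm7 and Grm8 of group III, 6 genes chosen by their symbols among the 16871 genes present in each of the 3 deposited comparison tables. All 6 symbols were also protein-coding symbols in RefSeq. The RNA came from the caudal perirhinal cortex of 14 male Lister Hooded rats, all food restricted and handled. Group Familiar (5 rats) was trained in the bow-tie maze and tested on objects it had met repeatedly. A further 5 rats, trained alike but on changing objects, met completely new objects at the test and are termed the new-object group. The 4 rats of group Control had neither training nor a test. Tissue was taken 1 h after the test, and the sequenced trained rats had been picked partly by behaviour in it, new-object rats for telling objects apart and Familiar rats for not doing so.

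Metabotropic glutamate receptors are G protein-coupled receptors that adjust transmission at synapses instead of carrying the fast current themselves. Group I receptors couple to Gq and phospholipase C and lie mainly beside the postsynaptic density. Groups II and III couple to Gi/o proteins, lower cyclic AMP, and act largely at presynaptic terminals, where they restrain transmitter release. In the perirhinal cortex, which supports recognition of objects, group I and II receptors are known for their part in long-term depression.

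For each gene and pair of groups the tables give a linear fold change with the unadjusted p value of the authors' edgeR test, and 0 columns of values per rat. Levels of the receptors, depths of the libraries and the spread between rats are therefore not given here. A Familiar rat and a new-object rat shared each cage. Which sequenced rats were cage mates is not given in the sources used here, and no cage term is stated for the tests behind the p values and errors below. All values below are differences between groups, as log2 fold changes after RUVSeq with 4 sources of variation removed (k = 4), unless another setting is named. RUVSeq estimates variation unrelated to the groups and removes it. The authors settled on k = 4 because it best separated the groups being compared, on these same samples, so p values at k = 4 may be too small. By their account, even k = 4 did not fully separate the trained groups from each other. Upper quartile normalisation alone was the setting without it. An error was derived from each fold change and its p value as the standard error (SE) that a 2-sided normal test would need, with a 95% interval, for p values up to 0.9. It is an approximation and inherits any fault of the p value. Genes were counted as DEGs where the unadjusted p was under 0.01 and the level rose by 25% or more, or fell to 0.8 times or less. A 25% change below means these limits. All 15 neuronal marker genes checked, among them Rbfox3, Slc17a7 and Gad1, were present in all 3 tables.

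No receptor gene was a DEG in any pair of groups. For the new-object group against Control this was 0 of 6, where 2.66% of 17257 genes were DEGs. It was also 0 of 6 for Familiar against Control, where 3.72% of 17521 genes were, and 0 of 6 between the trained groups, where 2.5% of 17461 were. At shares this low, 0 of 6 is near what the whole table gives. With p adjusted over all genes by the Benjamini-Hochberg method and a threshold of 0.05, again 0 of 6 passed in each comparison, beside 0.869%, 1.97% and 0.407% of all genes. The smallest adjusted p of a receptor in these edgeR tests was 0.558, 0.328 and 0.498 in that order. An unadjusted p under 0.05 was found for 0, 1 and 1 of the 6 receptors, and for 10.1%, 11.9% and 9.59% of all genes. The 1 receptor was Grm7 both times.

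**Figure D1:**
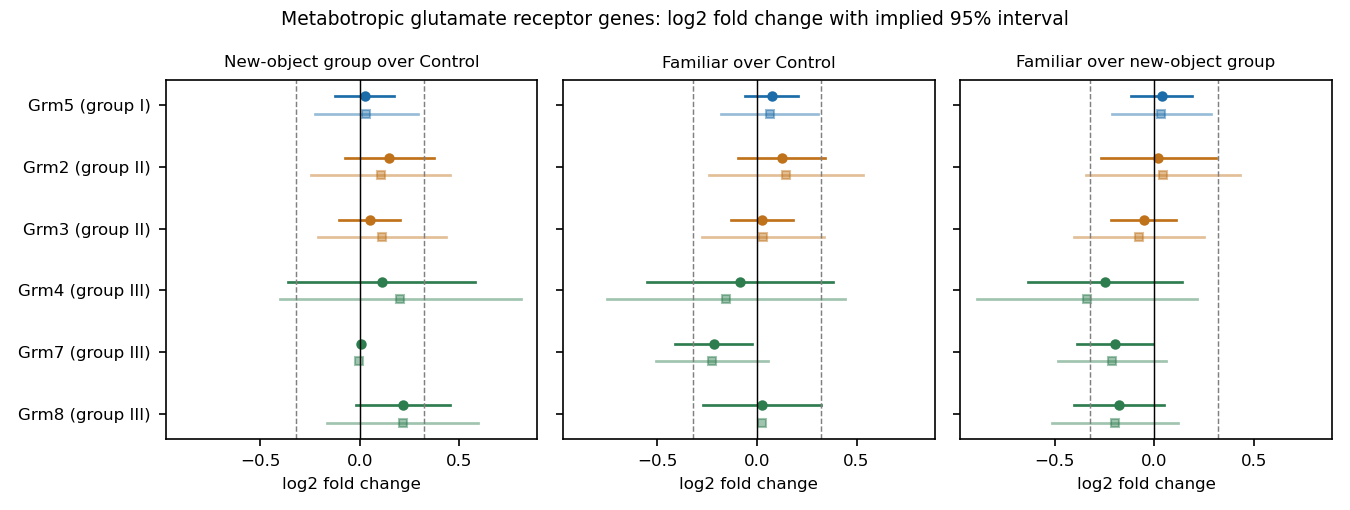
Log2 fold change of each receptor gene (x axis) in the 3 pairs of groups, coloured by receptor group; circles are k = 4, pale squares upper quartile normalisation, bars the 95% interval derived from the p value (no bar where p was over 0.9), and dashed lines the 25% limits. At k = 4 the intervals of Grm7 in Familiar end just under 0, and those of Grm5 stay inside the dashed lines in all 3 panels.

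Grm5 (ENSRNOG00000016429), the group I receptor that binds Homer scaffolds and drives calcium release from internal stores, had the smallest derived error of the receptors that had one. Its log2 fold change was 0.025 in the new-object group against Control (95% interval -0.12 to 0.17). In Familiar against Control it was 0.073 (95% interval -0.058 to 0.20). Between the trained groups, as Familiar over new-object, it was 0.037 (95% interval -0.12 to 0.19). On the linear scale the last interval reached from a change of -7.85% to one of 14.2%. The derived SE of Grm5 was between 0.067 and 0.079 at k = 4, at percentile 7.43, 5.27 and 4.99 of all genes in the 3 tables. With upper quartile normalisation, where errors were larger, the Grm5 interval still lay inside a 25% change in all 3 comparisons, from 0.854 times at its lowest to 1.24 times at its highest.

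The group II receptors Grm2 (ENSRNOG00000013171) and Grm3 (ENSRNOG00000005519) had values above 0 in both trained groups against Control. For Grm2, a presynaptic autoreceptor, the log2 fold change was 0.15 (SE 0.11) in the new-object group and 0.12 (SE 0.11) in Familiar. Their upper limits were a rise of 29.5% and of 26.8%, so a change of 25% lay within both intervals. Between the trained groups the Grm2 difference was 0.021 (SE 0.15), with a sign that turned at k = 5. Grm3, which astrocytes as well as neurons express, had 0.050 (SE 0.078) and 0.024 (SE 0.080) against Control, and -0.053 (SE 0.084) between the trained groups. Each Grm3 interval at k = 4 excluded a 25% change, the farthest limits being changes of 15.1% and -13.9%. With upper quartile normalisation the Grm3 interval against Control widened to an upper limit of 35.0% in the new-object group.

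Group III held the largest differences. Grm7 (ENSRNOG00000005662) encodes a receptor of low glutamate affinity in the presynaptic active zone. Its log2 fold change was 0.0083 in the new-object group against Control (unadjusted p = 0.956 in the edgeR test). In Familiar it was -0.22 against Control (SE 0.099, unadjusted p = 0.0274, edgeR adjusted p = 0.328) and -0.20 against the new-object group (SE 0.097, unadjusted p = 0.0438, edgeR adjusted p = 0.498). These are changes of -14.0% and -12.7%, and the same 5 Familiar rats enter both comparisons. Neither value passed the test. Grm7 ranked 1463 of 17521 genes by p in the first of them and 1537 of 17461 in the second. The difference had the same sign at all 5 settings against Control and all 6 against the new-object group, which are repeats of the same libraries and not independent. Its unadjusted p was 0.115 and 0.128 with upper quartile normalisation, and was under 0.05 at 2 of the 5 and 3 of the 6 settings.

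The promoter of Grm7, the receptor with the smallest p, is shown so that the start of the gene can be read beside its values. It is RefSeq sequence of the GRCr8 assembly, chr4:145286476-145286775 on the + strand, 250 bases before and 50 after the start of transcription. This assembly is later than the Rnor_6.0 build to which the authors mapped their reads, and the sequence was matched by gene symbol. Capitals mark GC boxes (GGGCGG on either strand).
Grm7 promoter: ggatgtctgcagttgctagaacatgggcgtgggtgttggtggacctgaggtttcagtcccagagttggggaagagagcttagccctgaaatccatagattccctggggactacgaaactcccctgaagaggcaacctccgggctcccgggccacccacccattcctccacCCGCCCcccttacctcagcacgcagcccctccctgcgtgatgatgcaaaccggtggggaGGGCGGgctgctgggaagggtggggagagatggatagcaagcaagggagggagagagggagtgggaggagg
It held 2 GC boxes, a motif that 33.1% of the 33469 promoters of this length hold. Of the motifs of activity-regulated factors, neither the CRE half-site TGACG (21.2% of promoters), the AP-1 site TGANTCA (7.33%) nor the EGR site GCGTGGGCG (0.544%) occurred in it, on either strand. The GC content was 62.0% for Grm7, 47.3% for Grm8 and 37.3% for Grm5, against a median of 51.7% over all promoters. RefSeq promoters were matched for these 3 of the 6 receptors, and no match of a motif says only that its letters are not in this window.

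Grm8 (ENSRNOG00000021468), a presynaptic receptor of high glutamate affinity, showed another order of groups. Its log2 fold change was 0.22 in the new-object group against Control (SE 0.12, unadjusted p = 0.0716, edgeR adjusted p = 0.558), a level 16.3% higher. In Familiar against Control its value was 0.025 (SE 0.15), and in Familiar against the new-object group -0.18 (SE 0.12, edgeR adjusted p = 0.683). So the estimate for Familiar lay near Control for Grm8, whereas for Grm7 it was the estimate for the new-object group that did. Neither difference was separated from 0 after adjustment.

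Grm4 (ENSRNOG00000000487), the remaining presynaptic group III receptor, was the least precisely measured. Its log2 fold changes were 0.11 (SE 0.24) in the new-object group against Control, -0.084 (SE 0.24) in Familiar against Control and -0.25 (SE 0.20) between the trained groups. The last is the largest difference of any receptor, with a 95% interval from -35.5% to 10.3% on the linear scale and an edgeR adjusted p of 0.780. Each of the 3 Grm4 intervals held a change of 25% in both directions, except that the last excluded a rise of that size.

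**Figure D2:**
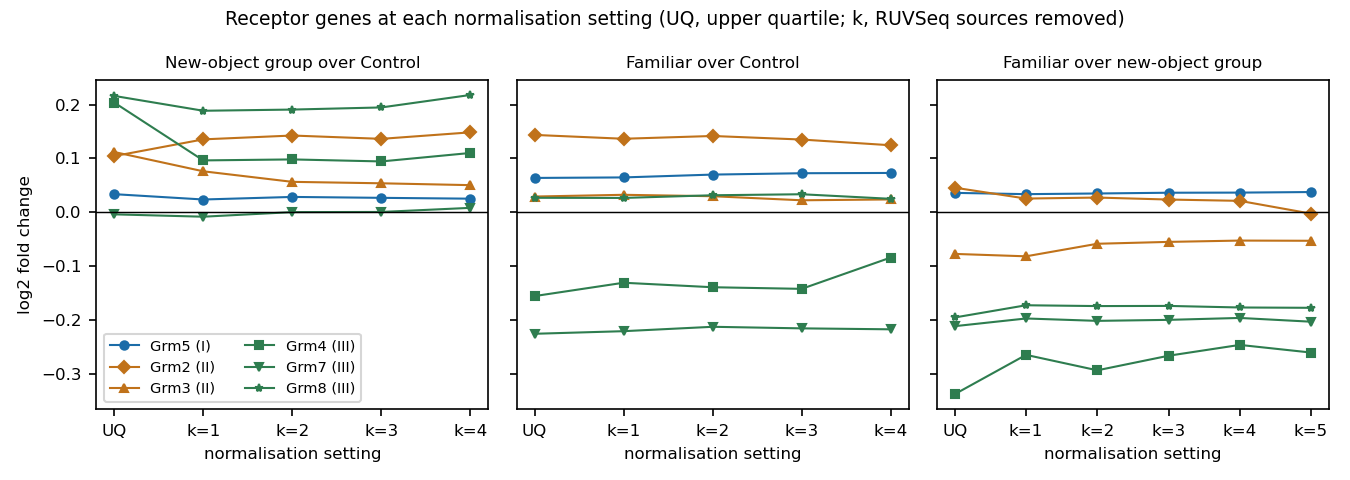
Log2 fold change of each receptor gene (y axis) at upper quartile normalisation (UQ) and with k RUVSeq sources removed (x axis), in the 3 pairs of groups; colours mark the receptor groups. In the right panel the 3 group III genes lie between -0.34 and -0.17 at all 6 settings, below Grm5, Grm2 and Grm3.

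The receptor groups were set side by side over the 3 pairs. In the new-object group against Control the log2 fold change was 0.025 for group I (Grm5 alone), a median of 0.099 for group II and a median of 0.11 for group III (0.20 with upper quartile normalisation), and all 6 receptors had values above 0, of which Grm7 turned below 0 with upper quartile normalisation and at k = 1. The median of all genes was -0.0092. In Familiar against Control the values were 0.073, 0.074 and -0.084 (the last -0.16 with upper quartile normalisation), with 4 receptors above 0 and Grm4 and Grm7 below, beside 0.00032 for all genes. Between the trained groups they were 0.037, -0.016 and -0.20, beside 0.012 for all genes. There all 3 group III receptors had lower estimates in Familiar, in a comparison where 52.3% of all genes had values above 0. They had lower estimates at each of the 6 settings too, which are repeats of the same libraries and not independent. With 1 to 3 genes in a receptor group and no values per rat, a difference between receptor groups was not tested. The 3 comparisons draw on the same 3 groups of rats in pairs. The difference of the values against Control, taken from k = 4 fits of separate tables, departed from the direct value by at most 0.052 among the 6 receptors, and by at most 0.022 after upper quartile normalisation.

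The 95% intervals show how much change these tables could have missed. Among receptors with an interval, it lay wholly inside a 25% change for 2 of 5 in the new-object group against Control (Grm3 and Grm5), beside 24.0% of all genes with an interval. The count was 3 of 6 in Familiar against Control (Grm3, Grm5 and, at its margin, Grm8), beside 24.9%. Between the trained groups it was 3 of 6 (Grm3, Grm5 and, at its margin, Grm2), beside 23.7%. With upper quartile normalisation Grm5 alone had such an interval in each comparison, beside 4.44%, 6.70% and 5.00% of all genes.

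Genes that act with the receptors were counted in 6 lists of scaffolds, G protein pathways, regulators, partners and glutamate handling. They comprised 83 identifiers (82 symbols, Shank2 having 2), in each table. In the new-object group against Control 1 was a DEG and it was higher, which is 1.20% beside the 2.66% of all genes. The order was the other way by adjusted p under 0.05 (2 genes, 2.41% beside 0.869%) and by unadjusted p under 0.05 (12 genes, 14.5% beside 10.1%). In Familiar against Control 1 was a DEG, also higher, or 1.20% beside 3.72%. There 2 genes had an adjusted p under 0.05, or 2.41% beside 1.97%, and 10 had an unadjusted p under 0.05, or 12.0% beside 11.9%. Between the trained groups 0 were by the edgeR test, while 8 had an unadjusted p under 0.05, or 9.64% beside 9.59% of all genes. The median log2 fold change of the 83 was 0.0034, 0.0097 and -0.0029 in the 3 comparisons.

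Of 14 regulators (RGS proteins, receptor kinases and arrestins), 7 had values above 0 and 7 below in the new-object group against Control. Among them 1 was a DEG and higher, where 2.66% of all genes were DEGs. This was Rgs4, which speeds the shut-off of Gq and Gi/o signals, including those of group I receptors. Its log2 fold change was 0.39 (SE 0.088, edgeR adjusted p = 0.00290). It was a DEG at 4 of 5 settings, with upper quartile normalisation the exception (log2 fold change 0.35, edgeR adjusted p = 1). In Familiar against Control Rgs4 had 0.13 (edgeR adjusted p = 0.523), and between the trained groups -0.22 (edgeR adjusted p = 0.578), so that a difference between them was not shown. Rgs12, singled out after its values were seen, had an adjusted p under 0.05 in the new-object group against Control without reaching a 25% change (log2 fold change -0.30, edgeR adjusted p = 0.0192). With upper quartile normalisation Rgs12 had -0.29 and an edgeR adjusted p of 1. Of the 14 regulators 0 were DEGs in Familiar against Control or against the new-object group by the edgeR test. An unadjusted p under 0.05 was found for 3, 1 and 1 of the 14 in the 3 comparisons, or 21.4%, 7.14% and 7.14%, beside 10.1%, 11.9% and 9.59% of all genes.

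Of 11 identifiers for scaffolds of group I receptors, 0 were DEGs in any comparison by the edgeR test, and 1, 1 and 2 had an unadjusted p under 0.05 (9.09%, 9.09% and 18.2%, beside 10.1%, 11.9% and 9.59% of all genes). Values above 0 were found for 5 of 11 in the new-object group against Control (median -0.063), 11 in Familiar against Control (median 0.031) and 7 between the trained groups (median 0.061), where 48.3%, 50.1% and 52.3% of all genes lay above 0. The 11 included values close to 0, and with upper quartile normalisation the count there was 9. Homer1, whose long forms tie Grm5 to the postsynaptic density and whose short form is an immediate early product that loosens this link, had 0.30 there (SE 0.081, edgeR adjusted p = 0.0184), below the 25% limit. Its value with upper quartile normalisation was again 0.30, with an edgeR adjusted p of 1. Homer1 had 0.15 in the new-object group against Control (edgeR adjusted p = 0.565), and 0.13 between the trained groups (edgeR adjusted p = 0.694). It was named after its values were seen, and the tables do not separate its short and long forms.

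The 18 genes of the Gq pathway and the 17 of the Gi/o pathway included 0 DEGs in all 3 comparisons by the edgeR test. An unadjusted p under 0.05 was found for 1, 2 and 1 of the Gq genes and for 1 of the Gi/o genes in each comparison. The shares were 5.56%, 11.1% and 5.56% for Gq and 5.88% for Gi/o, beside 10.1%, 11.9% and 9.59% of all genes. Adcy1, a calcium-stimulated adenylyl cyclase named after its values were seen, had a log2 fold change of 0.21 in Familiar against Control (SE 0.060, edgeR adjusted p = 0.0264), again short of 25%. With upper quartile normalisation Adcy1 had 0.23 and an edgeR adjusted p of 1. It had 0.054 in the new-object group against Control (edgeR adjusted p = 0.916) and 0.16 between the trained groups (edgeR adjusted p = 0.248).

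Among 8 partners of group II and III receptors, 3 had values above 0 and 5 below in Familiar against Control. There 1 was a DEG and higher, Slc9a3r1, a PDZ-domain scaffold, where 3.72% of all genes were DEGs. An unadjusted p under 0.05 was found for 1, 2 and 2 of the 8 (12.5%, 25% and 25%, beside 10.1%, 11.9% and 9.59%). The log2 fold change of Slc9a3r1 was 0.34 (SE 0.11, edgeR adjusted p = 0.102). This call held at 2 of 5 settings and not after adjustment, while the log2 fold change was 0.35 with upper quartile normalisation. Slc9a3r1 had 0.073 in the new-object group against Control (edgeR adjusted p = 0.966) and 0.26 between the trained groups (edgeR adjusted p = 0.467). The 15 genes of glutamate and NAAG handling included 0 DEGs in any comparison by the edgeR test, with an unadjusted p under 0.05 for 5, 3 and 1 of them. These are shares of 33.3%, 20.0% and 6.67%, beside 10.1%, 11.9% and 9.59% of all genes, and the difference from all genes was not tested. Their medians were 0.062, 0.11 and -0.021.

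**Figure D3:**
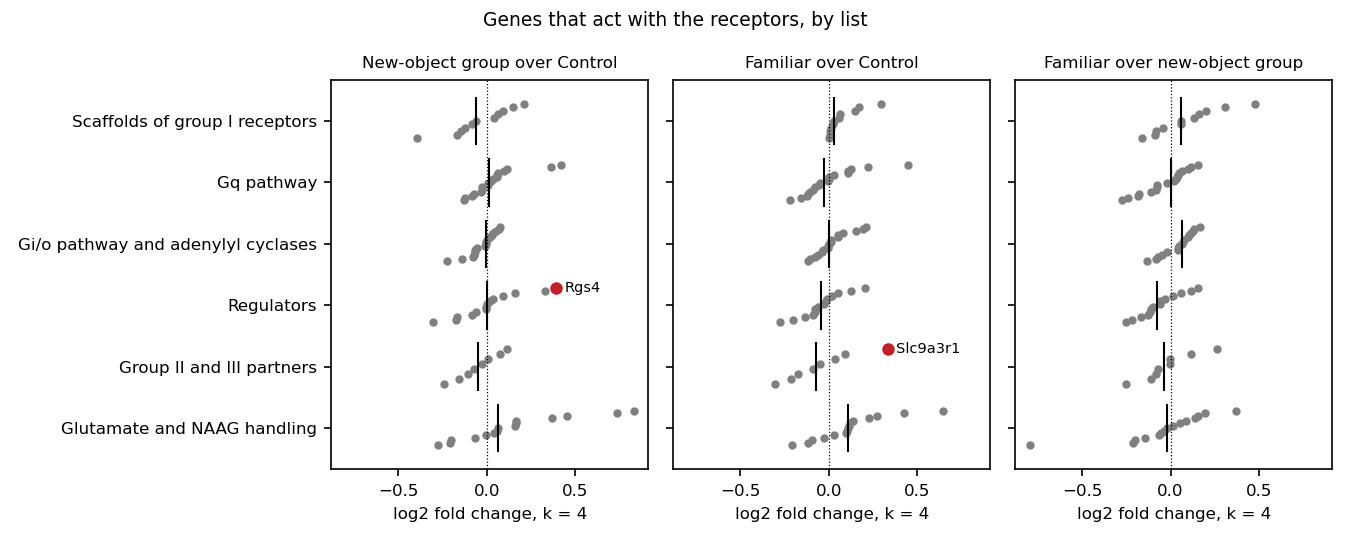
Log2 fold change at k = 4 (x axis) of each gene in the 6 lists of genes that act with the receptors, in the 3 pairs of groups; each point is an identifier, vertical bars are list medians, and DEGs are red and named. Rgs4 at 0.39 and Slc9a3r1 at 0.34 are the only red points, and the right panel has 0.

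Cell composition was followed through marker genes, since in bulk tissue fewer cells of a type and less RNA per cell cannot be told apart. All 5 oligodendrocyte markers had values below 0 in the new-object group against Control, and 4 of the 5 in Familiar against Control. Their medians were -0.40 and -0.32. DEGs, all lower, were 4 and 2 of the 5, where 2.66% and 3.72% of all genes were DEGs. An unadjusted p under 0.05 was found for 4 and 3 of them (80% and 60%, beside 10.1% and 11.9% of all genes). By the edgeR test 2 had an adjusted p under 0.05 in each comparison, beside 0.869% and 1.97% of all genes. With upper quartile normalisation 0 and 1 of the 5 were DEGs. The 7 astrocyte markers had medians of 0.16 and 0.098, with 7 and 5 values above 0 and 0 DEGs by the edgeR test. In each comparison 3 of them (42.9%, beside 10.1% and 11.9% of all genes) had an unadjusted p under 0.05. The gap junction gene Gja1, named after its values were seen, had 0.22 and 0.23 (edgeR adjusted p = 0.0354 and 0.00937, and 1 in both with upper quartile normalisation). Its log2 fold change in the new-object group against Control was 0.26 with upper quartile normalisation. For 6 inhibitory neuron markers the medians were -0.056 and -0.020, and for 4 general neuron markers -0.048 and -0.12. In Familiar against Control, where the Grm7 estimate was lower, 2 of these 4 (50%, beside 11.9% of all genes) had an unadjusted p under 0.05, Syt1 (-0.14, edgeR adjusted p = 0.0201) and Snap25 (-0.15, edgeR adjusted p = 0.0935), both named after their values were seen and both at an adjusted p of 1 with upper quartile normalisation. The 5 markers of excitatory neurons had medians of -0.074 and -0.029 against Control, with 4 and 5 values below 0 and 2 and 1 (40.0% and 20.0%, beside 10.1% and 11.9% of all genes) at an unadjusted p under 0.05. Of these 5, 1 was a DEG and lower in each comparison against Control, where 2.66% and 3.72% of all genes were DEGs. It was Neurod6, named after its values were seen. Neurod6 was no DEG with upper quartile normalisation, although its log2 fold changes were -0.40 and -0.49, beside -0.40 and -0.51 at k = 4. Of 4 meningeal fibroblast markers, 3 had values above 0 in Familiar against Control at k = 4 (median 0.24). Of these, 2 were DEGs, where 3.72% of all genes were. At the other 4 settings 0 were DEGs. Markers of oligodendrocyte precursors, microglia, endothelium and choroid plexus included 0 DEGs by the edgeR test in any comparison, with at most 1 of a list at an unadjusted p under 0.05. For endothelium this was its 1 listed marker, Flt1, named after its values were seen, with 0.31 in the new-object group and 0.21 in Familiar against Control (edgeR adjusted p = 0.0525 and 0.238). The 2 listed choroid plexus markers had medians of -0.60 and -0.016 against Control. In the new-object group Kcnj13 had -1.20 (edgeR unadjusted p = 0.0257, adjusted p = 0.392) and Clic6 0.0057, both named after their values were seen. With upper quartile normalisation these 2 had -1.48 and -0.72. Between the trained groups, the pair in which all 3 group III receptors had lower estimates in Familiar, 0 of the markers in any list were DEGs by the edgeR test, 1 had an unadjusted p under 0.05, which was the oligodendrocyte marker Mag at 0.39, also named after its values were seen, and the medians of the neuronal, astrocyte and oligodendrocyte lists lay between -0.058 and 0.035. The medians there were -0.12 for microglia, 0.55 for the 2 listed choroid plexus markers and -0.10 for Flt1. The part of cell composition in the receptor values was not tested.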

How the data were processed

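Ribosomal RNA was removed from the RNA of 14 samples, and libraries were run on the Ion Proton. The authors aligned reads to Rnor_6.0 with TopHat and Bowtie2 (tools and build also per the submitters' processing notes), took gene counts from HTSeq (unique alignments of quality 10) and left out genes with a mean count below 1 in any group. The deposited fold change values are linear ratios between 2 groups, from the authors' edgeR run after upper quartile normalisation or RUVSeq. The deposited p-values are those of the same tests, unadjusted. These were used at k = 4, the setting of the paper, for want of values per sample. The direction of the ratios was set by how the 3 tables close on each other and by Arc, which the paper gives as raised after training.

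Computed here were log2 values, Benjamini-Hochberg adjusted p over all genes of a table, implied SEs with 95% intervals, and counts at each setting. The calculations were tested on simulated data. The text names every receptor in the set and every DEG of the lists of partner genes. Others are marked as named after their values were seen. Receptors and lists were chosen with earlier results of these data known. Replicates are separate animals by the labels. Further members of the receptor family were not analysed here. The tools were matplotlib 3.10.9, pandas 2.3.3, scipy 1.17.1, numpy 2.4.6 and Python 3.11.15.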

Additional observations from a re-analysis of the deposited data

How the results depend on the processing

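The receptor results were recounted with upper quartile normalisation, with k = 1, 2 and 3, with k = 5 for Familiar against the new-object group, and with other call rules (adjusted p under 0.05, a decrease to 0.75, p under 0.01 with no minimum change). The number of receptors called was 0 in all 22 of these recounts, and all 39 recounted medians of receptor groups moved by less than the mean derived SE of their members. Of 78 recomputed receptor fold changes with a test, 75 kept their sign and stayed uncalled, and of 6 differences of the comparisons against Control, which have no test, 5 kept their sign. The sign turned for values near 0, namely Grm7 in the new-object group against Control (-0.0038 with upper quartile normalisation and -0.0082 at k = 1) and Grm2 in Familiar against the new-object group (-0.0025 at k = 5, and -0.024 as the difference of the comparisons against Control). Counts of partner genes called were less stable. Against Control, 0 were DEGs with upper quartile normalisation in either comparison, and 0 at k = 1 and k = 2 in Familiar. An adjusted p under 0.05 passed 2 (2.41%) in each comparison against Control, beside 0.869% and 1.97% of all genes. With p under 0.01 and no minimum change 6, 3 and 3 passed in the 3 comparisons (7.23%, 3.61% and 3.61%, beside 3.82%, 5.11% and 3.36%). The cause was not tested, apart from the last rule, which admits smaller changes by construction. No paired analysis was possible because the tables hold no values per rat, and leaving out each replicate was not run for the same reason. The depth of the libraries is not given in the tables, so its limit is seen only in the derived errors.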
